A study of Mus musculus with 6 samples.

Results

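The genes examined are 10 regulators and markers of bone and cartilage other than collagens: the regulators *Runx1*, *Runx2*, *Sp7*, *Sox5*, *Sox6* and *Sox9*, the enzyme gene *Alpl*, and the matrix protein genes *Ibsp*, *Mgp* and *Spp1*. They were chosen by name among the 25039 genes of the deposited RNA-Seq table, and each gene was represented by its RefSeq transcript with the highest mean. The libraries came from mouse embryonic fibroblasts (MEFs), primary cells grown from embryos and kept at early passages. There were 3 libraries from WT MEFs and 3 from *Anp32e*-/- MEFs, labelled as Anp32e null and taken from *Anp32e*-/- embryos. ANP32E is a histone chaperone known for removing the histone variant H2A.Z from chromatin, and the labels do not say whether the libraries of a genotype came from separate embryos. The value used is the authors' mean of normalized counts over all 6 libraries, both genotypes together. It therefore says how strongly a gene was read in these MEFs, not how the genotypes differ, and no SD between libraries can be given. The columns on the difference between the genotypes hold the authors' own comparison and were not used here.

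Bone and cartilage arise from mesenchymal cells, of which fibroblasts are relatives. RUNX2 sets up the osteoblast fate and SP7, also known as osterix, acts after it, while SOX9, with SOX5 and SOX6, drives cartilage formation. Tissue-nonspecific alkaline phosphatase, the product of *Alpl*, frees phosphate for mineral, and bone sialoprotein (*Ibsp*), osteopontin (*Spp1*) and matrix Gla protein (*Mgp*) are secreted proteins that bind mineral or calcium; MGP is known as an inhibitor of calcification.

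The 10 genes fell far apart in level. *Spp1* and *Mgp* were among the most strongly read genes of these MEFs. Per kb of exon *Runx1* and *Runx2* lay at percentiles 67.6 and 48.1 of the autosomal genes ranked. With the longest transcript of each gene as the length they lay at 49.1 and 48.5. *Sox5*, *Sox6* and *Sox9* lay below, *Sp7* and *Alpl* were lower still and *Ibsp* had no reads. The mean was at least 10 normalized counts for 7 of the 10 genes, which 57.6% of 23892 autosomal genes also reached, and at least 10000 for 2. *Spp1* and *Mgp* together made up 94.5% of the summed means of the 10 genes. *Anp32e*, the targeted gene, had a mean of 2190 normalized counts over the 6 libraries. Since no value per library was used, this mean does not check the genotype labels.

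**Figure D1:**
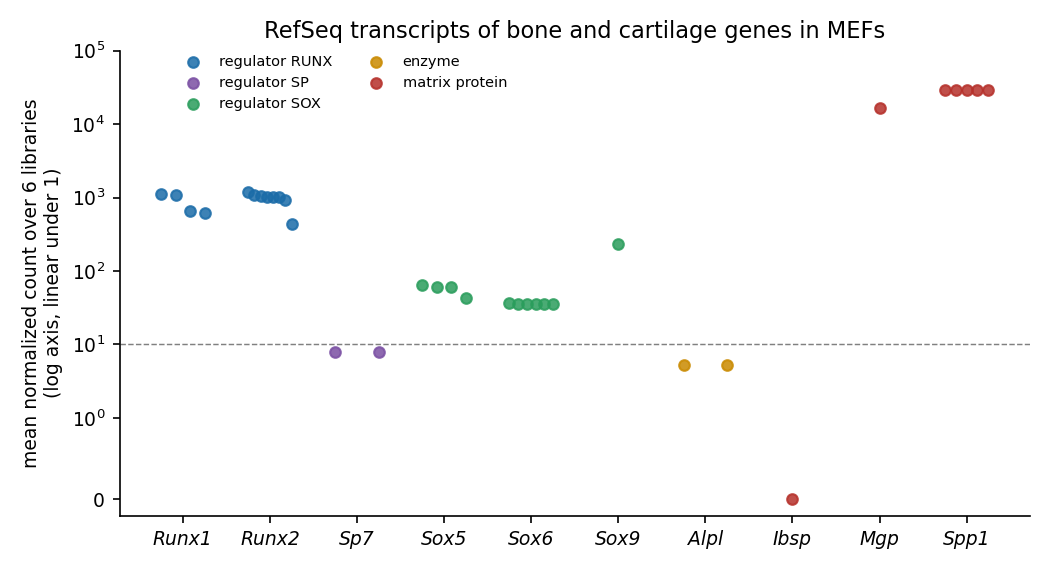
Mean normalized count over the 6 libraries (log axis, linear under 1) of each RefSeq transcript of the 10 genes, one point per transcript, coloured by role; the dashed line is a mean of 10. *Spp1* and *Mgp* stand highest, at 29392 and 16463 normalized counts, and *Sp7*, *Alpl* and *Ibsp* lie under the line.

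The depth behind a mean can be bounded from the table itself. A single read in 1 library adds between 0.147 and 0.183 normalized counts to the mean, in 6 steps that stand for the 6 libraries, whose size factors were therefore between 0.909 and 1.131. The means of all genes summed to 51217083 normalized counts, the size of an average library on these genes. The mean of *Alpl* thus rests on 29 to 36 reads in all libraries together, that of *Sp7* on 44 to 53, that of *Sox6* on 197 to 245 and that of *Runx1* on 6129 to 7624. These bounds cover the unknown split of reads between libraries, not the spread between cultures. A mean of any size can also come mostly from 1 genotype, and a mean of a few normalized counts from 1 genotype alone. In bulk RNA fewer cells of a type and less RNA per cell cannot be told apart.

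The fibroblast label was checked with 10 marker genes, 9 of which had a mean of at least 10 normalized counts. As 57.6% of autosomal genes also reached 10, this count alone says little about the label. *Vim*, the intermediate filament gene of mesenchymal cells, had 330695, *Fn1* had 86443 and *Col1a1* had 26142 normalized counts. The levels were uneven, with *Pdgfra* at 628 and *Dcn* at 144. Per kb of exon *Pdgfra* and *Dcn* lay at percentiles 39.4 and 38.1 of the autosomal genes ranked. The marker under 10 was *Lum*, a small leucine-rich proteoglycan gene, at 1.33. Markers of other cell types were present in part. Of 6 macrophage markers 2 reached 10, *Cd68* at 257 and *Csf1r* at 40.1, with *Ptprc* at 3.09 and *Adgre1* at 0.178, and of 5 endothelial markers 2 did, with *Kdr* at 2958 but *Pecam1* at 4.47 and *Emcn* at 0. Of 5 epithelial markers 3 reached 10, *Krt18* at 1106, *Cdh1* at 67.1 and *Krt8* at 26.7, with *Epcam* at 5.12 and *Krt5* at 1.17. Their part in the levels below was not tested.

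To show what surrounds the starts of the genes that lie at opposite ends of the range, and of the gene with a pair of well-separated starts, the RefSeq promoter windows (GRCm38.p6, 250 bases before to 50 after the start, 5′ to 3′ on the strand of the gene) are given for 5 starts. The windows are *Runx1* distal at chr16:92826025-92826324 (minus strand), *Runx1* proximal at chr16:92697280-92697579 (minus), *Runx2* distal at chr17:44814578-44814877 (minus), *Ibsp* at chr5:104299037-104299336 (plus) and *Spp1* at chr5:104434861-104435160 (plus). Capitals mark TATAAA, the RUNX core TGTGGT, the GC box GGGCGG and CCAAT on either strand, none of which overlap in these windows.
Runx1 distal: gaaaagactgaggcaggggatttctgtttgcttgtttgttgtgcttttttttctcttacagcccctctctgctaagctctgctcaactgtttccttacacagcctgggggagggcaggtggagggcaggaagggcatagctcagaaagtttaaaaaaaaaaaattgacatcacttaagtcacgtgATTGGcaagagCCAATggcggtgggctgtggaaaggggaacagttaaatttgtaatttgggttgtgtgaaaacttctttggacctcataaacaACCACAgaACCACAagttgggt
Runx1 proximal: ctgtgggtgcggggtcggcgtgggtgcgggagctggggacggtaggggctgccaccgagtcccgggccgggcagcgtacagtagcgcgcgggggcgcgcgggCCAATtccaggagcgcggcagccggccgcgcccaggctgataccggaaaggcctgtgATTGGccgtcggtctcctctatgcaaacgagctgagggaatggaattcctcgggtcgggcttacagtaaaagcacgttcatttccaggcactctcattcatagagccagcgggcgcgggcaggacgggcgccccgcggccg
Runx2 distal: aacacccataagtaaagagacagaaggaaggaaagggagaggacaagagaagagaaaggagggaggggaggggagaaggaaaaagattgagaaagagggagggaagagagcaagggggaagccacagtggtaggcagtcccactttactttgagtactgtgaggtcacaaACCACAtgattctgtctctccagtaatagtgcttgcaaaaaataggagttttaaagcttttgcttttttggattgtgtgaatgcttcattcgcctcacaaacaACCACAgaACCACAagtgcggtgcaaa
Ibsp: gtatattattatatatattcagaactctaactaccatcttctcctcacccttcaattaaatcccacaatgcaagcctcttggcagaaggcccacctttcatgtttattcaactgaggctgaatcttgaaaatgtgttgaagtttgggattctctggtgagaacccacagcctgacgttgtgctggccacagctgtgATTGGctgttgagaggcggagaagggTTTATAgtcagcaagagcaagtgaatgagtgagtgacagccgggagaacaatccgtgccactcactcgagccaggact
Spp1: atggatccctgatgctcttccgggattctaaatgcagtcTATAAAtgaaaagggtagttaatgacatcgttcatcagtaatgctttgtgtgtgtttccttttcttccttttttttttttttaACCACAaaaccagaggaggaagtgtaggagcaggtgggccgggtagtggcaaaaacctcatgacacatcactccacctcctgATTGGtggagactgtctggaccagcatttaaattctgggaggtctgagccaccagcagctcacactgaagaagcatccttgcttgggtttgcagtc

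In all, 7 of the 10 genes had 15 windows in the table, and *Sp7*, *Sox9* and *Mgp* had none. Of the 32851 windows of all genes, 13.6% hold TATAAA, 16.8% the RUNX core, 35.7% the GC box and 37.4% CCAAT on at least 1 strand. Such a match is a run of letters and not a measured binding site. The *Spp1* window holds 1 RUNX core, at base -128 from the start on the reverse strand, besides TATAAA at -211 and CCAAT at -46 in reverse. The *Ibsp* window, of the gene with no reads, holds no RUNX core but TATAAA in reverse at -28 and CCAAT in reverse at -54. The 2 starts of *Runx1* differ in base makeup, with 2 CpG dinucleotides in the distal and 35 in the proximal window, against a median of 7 over all windows.

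Letters of the RUNX core recur in the windows of the RUNX genes themselves. The distal *Runx1* window holds ACCACA at bases 29 and 37 after its start, and the *Runx2* window holds it at 24 and 32, and once more at -80. The longest stretch the 2 windows share is 22 bases that contain this pair, beginning at base 24 in *Runx1* and 19 in *Runx2*, and no other window in the table has it. The pair itself, ACCACANNACCACA on either strand, is in 7 of 32851 windows (0.021%), those of *Runx1*, *Runx2*, *Runx3*, *Gm16225*, *Gm15462*, *Gm12236* and *Olfr24*. This motif was picked after the windows had been read. In *Runx3*, the remaining RUNX gene, the pair begins at base -134 from a start at position 135120645 of chromosome 4, and the window of *Gm16225*, on the other strand, overlaps it and holds the same pair. The 22 bases around the pair are shown to compare the 3 genes, with the pair in capitals.
Runx1: aaacaACCACAgaACCACAagt
Runx2: aaacaACCACAgaACCACAagt
Runx3: cctcaACCACAgaACCACAagg

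*Runx1* and *Runx2* were read to nearly the same mean. *Runx1*, best known as a regulator of blood formation and also active in early skeletal cells, lies on chromosome 16 of GRCm38.p6 from 92601466 to 92826074 on the minus strand, and its transcript NM_001111023 had a mean of 1124 normalized counts. *Runx2* lies on chromosome 17 from 44495987 to 44814797 on the minus strand, and NM_001145920 had 1188 normalized counts, 1.06 times as many. Without a spread between libraries it cannot be said that these means differ. Levels of different genes are compared per kb of exon, with the exon length of the matching GENCODE transcript. On this scale *Runx1* had 566 normalized counts per kb, at percentile 67.6 of the 14838 autosomal genes ranked, and *Runx2* had 184, at percentile 48.1. The gap between the pair hangs on the transcript model. With the longest *Runx1* transcript (5861 bases of exon in place of 1985) *Runx1* came to 192 normalized counts per kb and percentile 49.1. *Runx2* had 184 and percentile 48.5 by the same rule. The *Runx1* transcript NM_009821, whose model has 4738 bases, had a mean of 1093, close to that of NM_001111023. NM_001111023 was thus likely counted over more than 1985 bases, and its 566 per kb is then too high.

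Transcripts of *Runx1* that reach the distal start and those that do not differed in mean. The distal start lies 129 kb upstream of the proximal one. Transcripts were placed by their GENCODE models. Those whose models begin at the proximal start or downstream of it had means of 1124 (NM_001111023) and 1093 (NM_009821) normalized counts, and those whose models reach the distal start had 652 (NM_001111021) and 621 (NM_001111022). Within each pair the difference was 30.8 normalized counts. In the GENCODE models NM_001111023 has, and NM_009821 lacks, an exon of 192 bases at chr16:92644154-92644345, but the exon boundaries that the authors counted on were not used here, so the reads of this exon alone are not known. Across the pairs the transcripts without the distal start were higher by 472 normalized counts, a net value of reads on the exons that only one kind holds. Equal means of many transcripts of 1 gene show that reads on shared exons were counted for each transcript, so these means are not the abundances of separate mRNAs.

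*Runx2* had 8 transcripts in the table with 6 distinct means. The highest was that of NM_001145920, whose GENCODE model starts 78.2 kb downstream of the distal start. Of the transcripts whose model reaches the distal start, NM_009820, NM_001146038 and NM_001271627 had 1006 normalized counts each, lower by 182, and the noncoding NR_073392 had 936. NM_001271630, paired with the same model as NM_001145920, had 1087, so means also differed between transcripts with the same modelled start. The noncoding NR_073425 had 434 normalized counts, 36.5% of the highest. *Supt3*, which encodes a transcription cofactor and overlaps the *Runx2* locus, had a mean of 588 normalized counts. Whether strand was used in counting is not known here, nor is how reads on any overlapping exons of these genes were assigned.

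Partners of the RUNX proteins were present. Of 11 related genes 10 had a mean of at least 10 normalized counts, with a median of 1515. Among all autosomal genes 57.6% reached a mean of 10. *Cbfb*, which encodes the shared binding partner of all RUNX proteins, had 4323 normalized counts (1495 per kb, percentile 83.9). The coactivator genes *Wwtr1* and *Yap1* had 9385 and 6678 normalized counts. *Twist1* and *Twist2*, whose products are known to hold back RUNX2, had 1958 and 1506, and *Hdac4*, a repressor of RUNX2 in cartilage, had 1850. *Runx3* had 527 normalized counts, 136 per kb, at percentile 43.9. The gene under 10 was *Cbfa2t3*, a corepressor gene, at 1.88.

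*Sp7* was read at a low level. It lies on chromosome 15 from 102356603 to 102367035 on the minus strand, and its transcripts NM_130458 and NM_001348205 had means of 7.95 and 7.79 normalized counts, a difference of 0.159, which is the step of 1 read in 1 library. Its level was 2.57 normalized counts per kb, at percentile 11.1. Of 8 other SP genes 5 reached a mean of 10, near the 57.6% of all autosomal genes that did. The widely expressed *Sp1* and *Sp3* had 5031 and 4025 normalized counts, or 649 and 963 per kb, and *Sp4* had 344. The genes under 10 were *Sp9* at 5.44, *Sp5* at 1.76 and *Sp8* at 0.633.

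*Sox9* was the highest of the 3 cartilage SOX genes. It lies on chromosome 11 from 112782210 to 112787757 on the plus strand and had a mean of 233 normalized counts, 56.4 per kb, at percentile 34.3. *Sox5* on chromosome 6 (143828425 to 144782287, minus strand) had 63.5 normalized counts and *Sox6* on chromosome 7 (115470872 to 116040776, minus strand) had 36.1. Both are long genes, and per kb they had 8.76 and 7.05 normalized counts, at percentiles 19.3 and 17.9. *Sox9* was thus 6.43 times as high as *Sox5* and 8.0 times as high as *Sox6* per kb, or 12.8 times as high as *Sox6* when the longest *Sox6* transcript was used. The 6 transcripts of *Sox6* differed by at most 0.317 normalized counts. Among the 4 of *Sox5*, NM_001347506 had 43.3 normalized counts, 68.2% of the highest, NM_011444.

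Other SOX genes exceeded this trio. Of 16 further SOX genes 8 had a mean of at least 10 normalized counts and 3 were at 0. The 8 are near the 57.6% of all autosomal genes that reached 10. *Sox4* had 8046 normalized counts, *Sox12* had 1410 and *Sox11* had 972, and all 3 belong to the SoxC group, known for roles in progenitor cells. *Sox13*, the relative of *Sox5* and *Sox6* in the SoxD group, had 91.4 normalized counts, 24.8 per kb. Of the relatives of *Sox9* in the SoxE group, *Sox8* had 40.4 and *Sox10*, a neural crest gene, had 8.22 normalized counts.

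**Figure D2:**
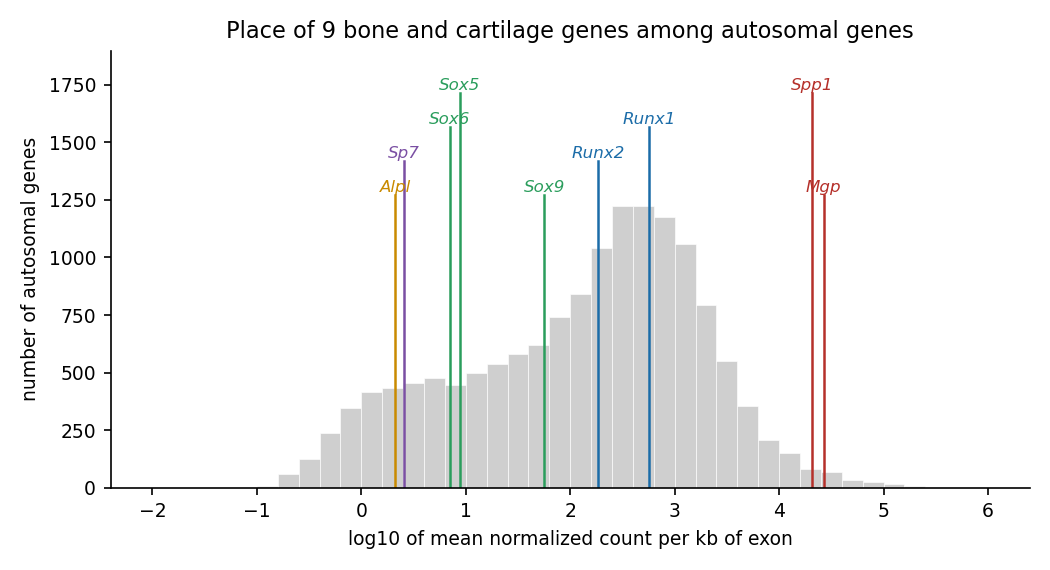
Number of autosomal genes (bars) by log10 of the mean normalized count per kb of exon, among 14838 genes with a mean of at least 1, with the place of 9 bone and cartilage genes as lines; *Ibsp*, listed at 0, is not shown. *Spp1* and *Mgp* lie in the right tail at percentiles 98.8 and 99.0, and *Alpl* and *Sp7* on the left at 9.74 and 11.1. *Runx1* is drawn with 1985 bases of exon, at percentile 67.6, and lay at 49.1 with its longest transcript.

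*Alpl*, the enzyme gene, had a lower mean than *Sp7*, but with no spread between libraries known these 2 genes cannot be ordered. *Alpl* lies on chromosome 4 from 137741731 to 137796384 on the minus strand. Both its transcripts had a mean of 5.31 normalized counts, 2.11 per kb, at percentile 9.74. Its 2 RefSeq starts have windows with 26 and 4 CpG dinucleotides, and the equal means give no sign of which of them the reads came from. Of 11 other genes for enzymes, transporters and inhibitors of mineralization, 9 had a mean of at least 10 normalized counts, with a median of 1060. The share of all autosomal genes at 10 or more was 57.6%. The remaining genes, *Ahsg* at 2.996 and *Abcc6* at 1.11, lay below *Alpl*. The phosphate transporter genes *Slc20a1* and *Slc20a2* had 5368 and 3395 normalized counts, and *Ank*, whose product carries pyrophosphate out of the cell, had 2408. *Enpp1*, which encodes an enzyme that makes pyrophosphate, had 1060 normalized counts, 390 per kb. *Phospho1*, which encodes a phosphatase of matrix vesicles, had 246 normalized counts, 129 per kb.

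*Mgp* and *Spp1* were the 2 genes at the top. *Mgp*, on chromosome 6 from 136872435 to 136875823 on the minus strand, has 4 exons with 617 bases in all and a mean of 16463 normalized counts. *Spp1*, on chromosome 5 from 104435111 to 104441053 on the plus strand, had 29392 normalized counts. Per kb the order turned, with 26683 for *Mgp* (place 143 among the 14838 genes ranked) and 20831 for *Spp1* (place 183), a ratio of 1.28 for which no spread is known. The 5 transcripts of *Spp1* had means within 9.83 normalized counts of each other; the lowest was NM_001204233, which begins at an internal start at position 104436192. The MGP protein needs vitamin K-dependent carboxylation, and *Ggcx* and *Vkorc1*, which encode the carboxylase and the enzyme that recycles vitamin K, had 1116 and 1486 normalized counts.

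*Ibsp* had no reads in any of the 6 libraries. It lies on chromosome 5 from 104299287 to 104311472 on the plus strand, 136 kb upstream of *Spp1*. The count of 0 was given an allowance of 3 reads over the 6 libraries, which is a mean of 0.55 normalized counts or 0.266 per kb. At that allowance *Spp1* was 78312-fold higher per kb than *Ibsp*. The allowance is a chosen limit for read counting and does not cover the spread between libraries, so the fold is not a firm minimum. Both belong to the SIBLING family of acidic secreted proteins of bone and teeth, whose 5 genes lie side by side on chromosome 5. Of the other members *Dmp1* had a mean of 0.536 normalized counts, and *Dspp* and *Mepe* were at 0. *Spp1* was the single member of the family over 10. On its other side, *Pkd2*, which encodes a cation channel of the primary cilium, had 5030 normalized counts. Its lower chromosome coordinate is 18.9 kb from that of *Spp1*. Of the 18 genes within 600 kb by this coordinate, *Spp1* had the highest mean.

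**Figure D3:**
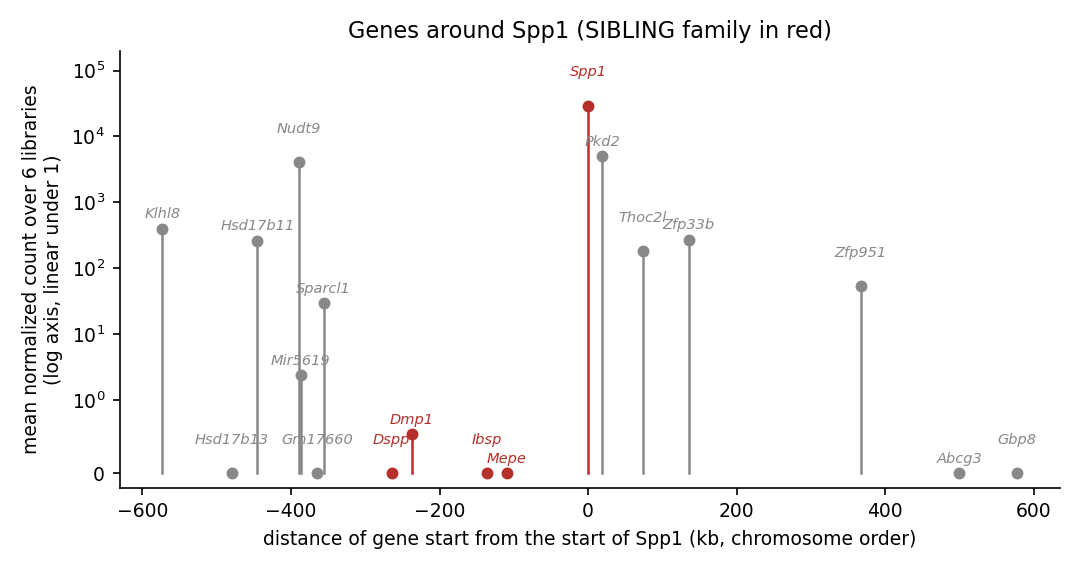
Mean normalized count over the 6 libraries (log axis, linear under 1) of the 18 genes within 600 kb of *Spp1*, against their distance in kb. Distances are between the lower chromosome coordinates of the genes, whatever their strand. The SIBLING family is in red. *Spp1* stands at 29392 normalized counts, while *Dmp1* is at 0.536 and *Dspp*, *Ibsp* and *Mepe* are at 0.

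Most further genes of bone and cartilage lay far below *Spp1* and *Mgp*. A mean of at least 10 normalized counts was reached by 57.6% of all autosomal genes. The osteoblast and chondrocyte counts given here are near that share, so they do not set these lists apart as low. Of 18 further osteoblast genes 12 reached 10, with a median of 27.5. The highest were *Sparc*, a collagen-binding matrix protein gene that fibroblasts also express, at 56860, *Atf4*, a stress-responsive transcription factor gene, at 20528, and the homeobox gene *Msx2* at 1797. The osteocalcin genes *Bglap* and *Bglap2*, the classical late markers of osteoblasts, had 2.42 and 4.54 normalized counts. They are near-identical copies, and whether reads that fit both were shared or left out is not known here. Of 5 osteocyte markers 1 reached 10, *Phex* at 32.7, and *Sost* had 9.57 normalized counts. Of 17 further chondrocyte genes 9 reached 10, with a median of 12.2. Their highest was *Trps1*, a GATA-type repressor gene of growth plate cells, at 1612, followed by *Prg4*, which encodes the lubricant lubricin, at 232 and *Matn3*, a cartilage matrix gene, at 94.98. *Acan*, which encodes the main proteoglycan of cartilage, had 14.1 normalized counts, and *Snorc* was at 0.

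**Figure D4:**
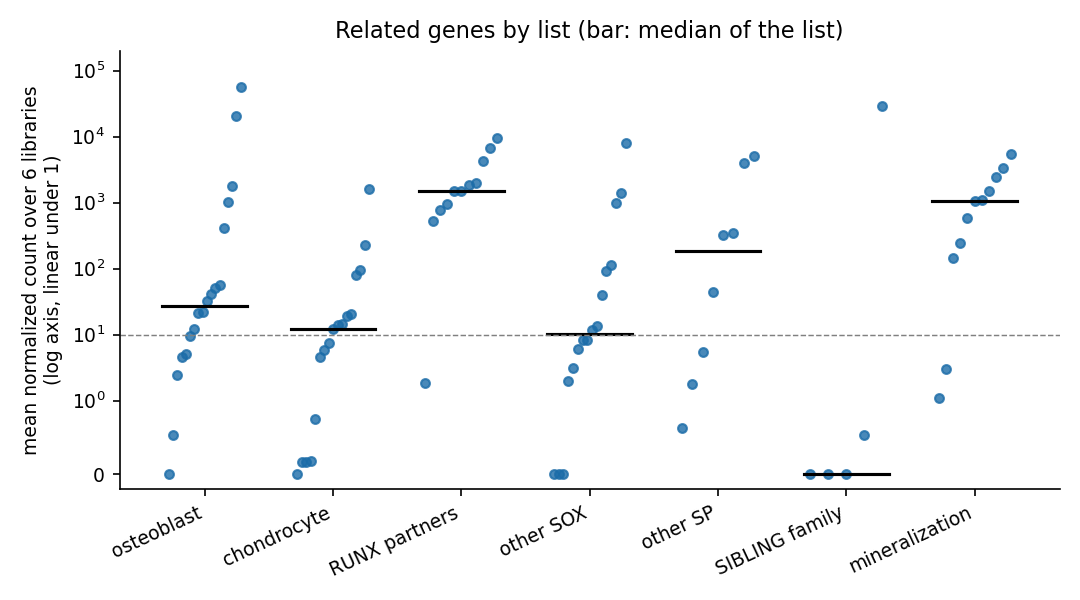
Mean normalized count over the 6 libraries (log axis, linear under 1) of related genes in 7 lists, one point per gene, with a bar at the median of each list and a dashed line at 10. The RUNX partners and the mineralization genes have medians of 1515 and 1060, the osteoblast and chondrocyte genes 27.5 and 12.2, and in the SIBLING family only *Spp1* lies over the line.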

How the data were processed

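RNA-Seq of 3 WT and 3 *Anp32e*-/- MEF libraries was examined. Per the paper's methods, RNA-STAR was used by the authors for alignment to mm10, and featureCounts of the Subread package and DESeq2, at default settings, for counting, normalization and testing. Each line of the table is a RefSeq transcript. The annotation and the grouping of exons for counting are not given in the sources used here. The signal column used is the authors' deposited mean over the 6 libraries of counts divided by size factors. The other 5 numeric columns hold the authors' comparison of the genotypes (log2 fold change, standard error, statistic and p-values) and were not used, so no test and no comparison of genotypes was made. Values and totals per library were not analysed here.

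Of 42361 transcripts, 42198 were matched to 25039 genes by RefSeq accession (GRCm38.p6). Exon lengths are those of the longest GENCODE M21 transcript paired with the accession, found for 83.5% of matched transcripts. Percentiles are among the 14838 genes on autosomes that have a length and reach a mean of 1 (89.6% of those that reach it). Members of 7 related lists and 9 marker lists counted as detected at a mean of at least 10. The genes named were all 10 members, the 3 highest of each related list and family relatives; others, among them the low genes of lists, the neighbours of *Spp1* and *Supt3*, were named after their values were seen. Members and lists were chosen with earlier results of these data known. Alternatives changed the length, the transcript, the genes ranked and the minimum. Python 3.11.15, numpy 2.4.6, pandas 2.3.3, scipy 1.17.1 and matplotlib 3.10.9 were used.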

Additional observations from a re-analysis of the deposited data

How the results depend on the processing

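The place of the 9 genes ranked, taken as their median percentile, was 34.3. It was 21.5 among genes on autosomes that reach a mean of 10, 54.9 among all autosomal genes in the table, 31.6 among coding genes, 39.4 by mean without division by length, and 32.4 with the distinct transcript means of each gene summed, which counts shared reads more than once. These settings change which genes are ranked or the scale, and single genes moved by up to 27.5 percentile points with all genes ranked. With X and Y genes included, no single gene moved by more than 0.208 points. Taking the longest transcript moved 2 genes, *Runx1* and *Sox6*, by over the binomial 95% interval of their percentile. This interval is a yardstick set by the number of genes ranked and holds no spread between libraries. At a minimum mean of 1 or 50 in place of 10, 9 or 6 of the 10 genes passed, as did 69.3% or 50% of autosomal genes. No paired analysis was possible because the column used holds no values per library, and for the same reason no library could be left out. Depth limits *Alpl* and *Sp7* most, as their means rest on the fewest reads among the genes with any.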

Other observations

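Some markers of other mesenchymal fates were read as well. As 57.6% of all autosomal genes reached a mean of 10, counts of such markers at 10 alone say little. Of 5 adipocyte markers 3 had a mean of at least 10 normalized counts: *Pparg*, the regulator of fat cell formation, had 1423, *Fabp4*, a fatty acid carrier gene, had 1250 and *Cebpa* had 212, while *Plin1* and *Adipoq*, genes of mature fat cells, had 1.68 and 0.504. Of 7 skeletal muscle markers 2 reached 10. *Acta1*, a muscle actin gene, had 4711 and *Des* had 59.6 normalized counts, whereas the muscle regulators *Myod1* and *Myf5* were at 0 and *Myog* had 0.59.

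The collagens named as cartilage markers did not stand at one level. *Col10a1*, the collagen gene of hypertrophic chondrocytes, had a mean of 6424 normalized counts, 2053 per kb of exon, at percentile 87.8, and *Mmp13*, a collagenase gene of the same cells, had 1000.2. *Ihh*, the hedgehog ligand gene of prehypertrophic cells, had 4.54. *Col2a1*, the main cartilage collagen gene, had 577 normalized counts and *Col9a1* was at 0. As all values are means over both genotypes, the libraries that these reads came from are not known here.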
